A study of Mus musculus with 2 samples.

Results

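The CCN matricellular family was followed through the cells of the normal mouse thoracic aorta. Its 5 members, Ccn1 (also called Cyr61), Ccn2 (Ctgf), Ccn3 (Nov), Ccn4 (Wisp1) and Ccn5 (Wisp2), were taken by gene symbol from the 32287 features of the deposited tables, and each symbol matched 1 feature. The data are droplet single-cell transcriptomes of 2 thoracic aortas, 1 library for each animal. Both animals were GFPiSMC mice on the C57BL/6J strain and formed 1 wild-type group (WT, n = 2), so every comparison below is between cell types or subsets within the aortas and none is between treatments.

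GFPiSMC mice carry an inducible Cre recombinase driven by the Myh11 promoter and the mT/mG reporter, which turns smooth muscle cells (SMCs) that expressed the Cre from tdTomato to eGFP. By the labels, tamoxifen was given to both, 1 mg/d over 5 days starting at 3 weeks, and they were 12 weeks old at collection. A higher dose and a later start form the main schedule in the study's methods, and the labels are followed here. The study's methods give the animals as male, because the Cre transgene sits on the Y chromosome. Cold enzymatic digestion was followed by a sort for live singlets without selection on GFP, so shares of cells below are shares of recovered cells.

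CCN proteins are secreted, cysteine-rich proteins of the extracellular matrix that bind integrins, heparan sulfate proteoglycans and LRP receptors and alter how cells respond to growth factors. Ccn1 and Ccn2 are classical targets of the mechanosensitive coactivators YAP and TAZ, which act through TEAD factors, and Ccn2 is also a classical TGF-β target. Ccn3 is known as a regulator of growth and inflammation in vessels, Ccn4 as a Wnt-inducible gene, and Ccn5 lacks the C-terminal domain of the other members and often opposes Ccn2.

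After filtering, 6539 cells of aorta 1 and 4614 cells of aorta 2 were analysed, with medians of 5671 and 5396.5 UMIs (unique molecular identifiers, which count captured RNA molecules) per cell. The barcode sets of the analysed cells shared 10 barcodes. Clusters were named from marker genes into 9 types, and 278 cells stayed unnamed. In aortas 1 and 2 there were 2259 and 1653 SMCs, 1603 and 1104 fibroblasts and 738 and 653 endothelial cells. Smaller types were lymphatic endothelial cells (46 and 76), myeloid cells (863 and 540), mesothelial cells (275 and 158), lymphocytes (500 and 290), neutrophils (46 and 35) and erythroid cells (23 and 13). Every name stands for a type that resembles it by markers. In fibroblasts, the level of Myh11, the smooth muscle myosin heavy chain, was 0.0338 and 0.0402 of that in SMCs.

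The family divided by cell type. Ccn1, Ccn2 and Ccn3 were higher in SMCs than in fibroblasts, Ccn4 and Ccn5 were higher in fibroblasts than in SMCs, and the Ccn1 of endothelial cells did not differ from that of SMCs by the test. The Ccn2 difference was the smallest, and it did not pass with RLE scaling or with DESeq2, as given below. Across the 9 types all 5 members passed the test of a difference among types, with edgeR adjusted p-values from 1.98e-25 for Ccn5 to 3.70e-13 for Ccn4. The same test was passed by 92.4% of the 13591 genes tested, so this alone does not set the family apart. Between SMCs and fibroblasts all 5 members also passed, against 53.5% of all genes tested.

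**Figure D1:**
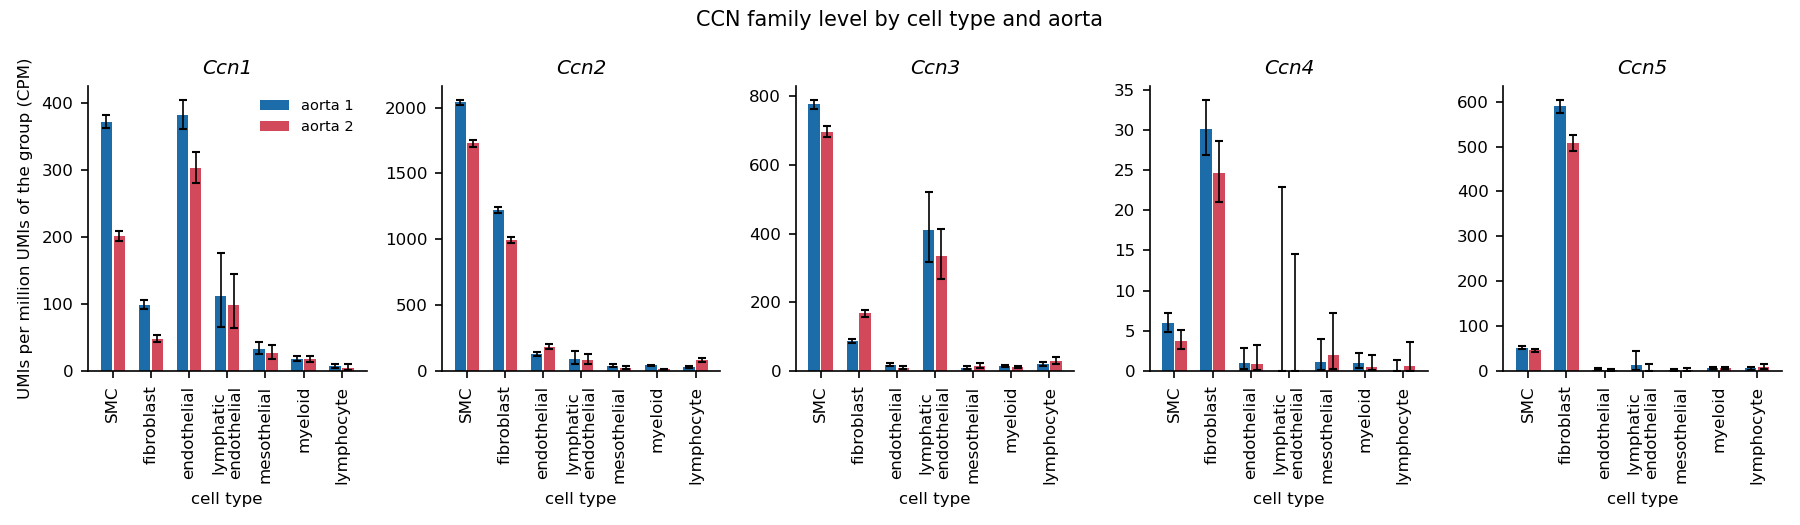
Level of each member, in UMIs of the gene per 1000000 UMIs of the cell type (CPM), in 7 cell types. Bars stand for 1 aorta each, error bars are exact 95% Poisson intervals that cover counting error only, and each panel has its own axis. Ccn1 is highest in endothelial cells and SMCs, Ccn2 and Ccn3 in SMCs, and Ccn4 and Ccn5 in fibroblasts.

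Ccn1 (ENSMUSG00000028195, chromosome 3, 145646976 to 145649981 on GRCm38, minus strand) encodes an integrin-binding protein and is an immediate early gene. The promoter is shown because the Ccn1 level of SMCs is set beside that of other immediate early genes below. It is the only 1 of the 5 members with an entry in the RefSeq promoter table used (GRCm38.p6), and the 250 bases before its start, chr3:145649986-145650235 on the minus strand, read as follows, with capitals marking the match to a TEAD motif.
Ccn1 promoter: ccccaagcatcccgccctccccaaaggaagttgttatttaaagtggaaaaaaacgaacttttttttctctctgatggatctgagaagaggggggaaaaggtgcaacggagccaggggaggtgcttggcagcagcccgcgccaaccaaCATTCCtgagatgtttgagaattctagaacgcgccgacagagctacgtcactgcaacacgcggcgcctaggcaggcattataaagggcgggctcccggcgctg

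Both strands were searched for a TEAD motif (GGAATG), an AP-1 motif (TGANTCA), a SMAD motif (CAGAC) and the CArG box that SRF binds. The TEAD motif matched once, on the strand opposite to the gene, from base -103 to base -98 before the start. No other motif had a match in this window. Of 32851 RefSeq promoters of the same length, 12.6% held the TEAD motif, 6.75% the AP-1 motif, 42.2% the SMAD motif and 1.47% the CArG box. A match is a description of the letters only.

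The Ccn1 level was 383.0 CPM in endothelial cells of aorta 1 and 303.5 CPM in those of aorta 2. In SMCs it was 372.9 and 201.6 CPM. Endothelial cells and SMCs overlapped in these values, and their difference did not pass the test (log2 difference, endothelial minus SMC, 0.00 ± 0.21 SE, edgeR adjusted p = 0.99961). By CPM the SMC level was the lower one in both aortas. After TMM scaling, the log2 difference, SMC minus endothelial, was -0.43 within aorta 2 alone and 0.24 within aorta 1 alone, so the scaling turned the sign in aorta 1.

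Lymphatic endothelial cells had 111.5 and 98.5 CPM of Ccn1, from only 18 and 25 UMIs. Fibroblasts had 99.2 and 48.1 CPM. These neighbours in the order did not differ beyond their spread (fibroblast minus lymphatic endothelial, log2 difference 0.06 ± 0.48, edgeR adjusted p = 0.955). The sign turned with the scaling and with the cells kept, and with cells of 5000 to 25000 UMIs alone fibroblasts were the lower type and the difference passed (-1.50, edgeR adjusted p = 0.0146). Both lay below SMCs, by log2 differences of 2.11 ± 0.41 for lymphatic endothelial cells (edgeR adjusted p = 0.000150) and 2.04 ± 0.22 for fibroblasts (edgeR adjusted p = 5.69e-09). Of all genes tested, 24.6% differed between fibroblasts and lymphatic endothelial cells and 31.2% between SMCs and lymphatic endothelial cells. The difference between SMCs and lymphatic endothelial cells was 1.47 with library totals, 1.51 with RLE scaling, 1.50 with DESeq2 and 1.50 within aorta 2 alone. It did not pass when only cells of 5000 to 25000 UMIs were kept (0.57, edgeR adjusted p = 0.534).

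Mesothelial cells followed with 33.6 and 26.8 CPM, below fibroblasts by a log2 difference of 1.43 ± 0.35 (edgeR adjusted p = 0.00144), a pair of types between which 37.4% of genes differed. With doublets kept, that difference was 0.90 and did not pass (edgeR adjusted p = 0.0696). Myeloid cells had 18.0 CPM in both aortas, and lymphocytes, in which a Ccn1 UMI is taken here as free RNA from other cells, had 7.14 and 5.14 CPM. Myeloid cells and lymphocytes did not differ by the test (edgeR adjusted p = 0.0554). In neutrophils 0 UMIs were found, which allows up to 31.4 and 45.8 CPM. Erythroid cells held 7 and 1 UMIs.

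Fibroblasts exceeded the lymphocyte background of Ccn1 by a log2 difference of 3.43 ± 0.44 (edgeR adjusted p = 9.39e-08), as 67.2% of genes differed between these types. It was 1.79 with doublets kept and 2.64 with cells of 5000 to 25000 UMIs, and passed in both. The ratio of the fibroblast to the SMC level was 0.266 and 0.239. For the 7 SMC markers the same ratio lay between 0.0279 and 0.128 in aorta 1 and between 0.0273 and 0.135 in aorta 2. The Ccn1 of fibroblasts was therefore a larger part of the SMC level than any SMC marker was.

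Ccn2 (ENSMUSG00000019997, chromosome 10, 24595442 to 24598683, plus strand) encodes connective tissue growth factor, a matrix-associated profibrotic factor. Its level was 2039 and 1727 CPM in SMCs and 1222 and 997 CPM in fibroblasts. SMCs lay above fibroblasts in both aortas, by a log2 difference of 0.86 ± 0.28 (edgeR adjusted p = 0.0102), with ratios of 1.67 and 1.73. This was the smallest of the family's differences between SMCs and fibroblasts, and it did not pass with RLE scaling (0.55, edgeR adjusted p = 0.0835) or with DESeq2 (0.55, adjusted p = 0.624).

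By CPM both types were far above the rest in Ccn2, but fibroblasts and erythroid cells did not differ by the test (log2 difference 1.58 ± 0.56, edgeR adjusted p = 0.0916). Endothelial cells had 129 and 185 CPM, below fibroblasts by a log2 difference of 2.98 ± 0.31 (edgeR adjusted p = 2.34e-09) and below SMCs by 3.84 ± 0.32 (edgeR adjusted p = 1.50e-11). With cells of 5000 to 25000 UMIs alone these were 2.08 and 2.98, and both still passed. Lymphatic endothelial cells had 92.9 and 82.8 CPM, lymphocytes 31.9 and 86.1 CPM, mesothelial cells 39.7 and 24.8 CPM, and myeloid cells 42.9 and 13.2 CPM. No difference between neighbours in the order from endothelial cells down passed the test, with erythroid cells next after endothelial cells. Endothelial cells did exceed lymphocytes (log2 difference 1.24, edgeR adjusted p = 0.00359), mesothelial cells (2.21, edgeR adjusted p = 4.58e-05) and myeloid cells (2.31, edgeR adjusted p = 1.18e-06). They did not differ from lymphatic endothelial cells by the test (edgeR adjusted p = 0.135). Erythroid cells held 29 UMIs in aorta 1 and 0 in aorta 2, and neutrophils 1 in each. The long noncoding gene Gm15270 overlaps Ccn2 on the other strand, and strand use in the counting was not given in the sources used here. Gm15270 had 410 and 263 UMIs in all cells, against 47562 and 27850 for Ccn2.

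Ccn3 (ENSMUSG00000037362, chromosome 15, 54745702 to 54754039, plus strand) was highest in SMCs, at 776 and 697 CPM. Lymphatic endothelial cells came next with 409 and 335 CPM, from 66 and 85 UMIs, while blood endothelial cells had 18.2 and 10.1 CPM. The level was thus high in 1 endothelial type and below the lymphocyte level, 20.3 and 29.5 CPM, in the other. Lymphatic exceeded blood endothelial cells by a log2 difference of 4.26 ± 0.35 (edgeR adjusted p = 1.19e-10) and lay below SMCs by 1.64 ± 0.24 (edgeR adjusted p = 2.67e-06). Of all genes tested, 16.2% differed between the endothelial types in either direction. With doublets kept the difference between the endothelial types was 3.40, and with cells of 5000 to 25000 UMIs 5.63. The difference from SMCs was 1.01 with library totals, 1.05 with RLE scaling and 1.03 with DESeq2. With only cells of 5000 to 25000 UMIs it was 0.42 and did not pass (edgeR adjusted p = 0.503).

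Fibroblasts had 86.9 and 168 CPM of Ccn3, below SMCs by a log2 difference of 2.64 ± 0.19 (edgeR adjusted p = 3.83e-13). They also lay below lymphatic endothelial cells, by 1.00 ± 0.26 (edgeR adjusted p = 0.00478), a difference of 2.36 with cells of 5000 to 25000 UMIs and 1.64 within aorta 1 alone. The aortas differed in size here: SMCs were 8.94-fold above fibroblasts in aorta 1 and 4.15-fold in aorta 2. The fibroblast to SMC ratio, 0.112 in aorta 1, lay within the range of the SMC markers given above, whereas that of aorta 2, 0.241, lay above it. Myeloid cells (14.3 and 11.2 CPM) and mesothelial cells (9.37 and 14.9 CPM) were below the lymphocyte level. Erythroid cells (7 and 1 UMIs) and neutrophils (3 and 0 UMIs) held few counts.

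Ccn4 (ENSMUSG00000005124, chromosome 15, 66891320 to 66923201, plus strand) was a fibroblast transcript at a low level. It gave 30.2 and 24.6 CPM in fibroblasts, from 299 and 165 UMIs, and 5.96 and 3.79 CPM in SMCs, from 101 and 45 UMIs. Fibroblasts lay above SMCs in both aortas, with a log2 difference, SMC minus fibroblast, of -2.36 ± 0.21 (edgeR adjusted p = 2.80e-10). SMCs held Ccn4 at 0.197 and 0.154 of the fibroblast level, above the range of the 7 fibroblast markers, 0.00342 to 0.0750 in aorta 1 and 0.00291 to 0.0751 in aorta 2. With doublets kept the difference was -1.68.

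No other type held more than 6 Ccn4 UMIs in an aorta. Endothelial cells had 3 and 2, mesothelial cells 2 and 2, myeloid cells 6 and 2, and lymphocytes 0 and 1. SMCs exceeded lymphocytes by the test (edgeR adjusted p = 9.80e-05) and mesothelial cells too (edgeR adjusted p = 0.0101), where 67.3% and 45.8% of genes differed. The latter did not pass with DESeq2 (adjusted p = 0.0605) or with doublets kept (edgeR adjusted p = 0.131). Lymphatic endothelial cells, erythroid cells and neutrophils held 0 UMIs, which allows up to 18.6 and 11.8 CPM in lymphatic endothelial cells.

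Ccn5 (ENSMUSG00000027656, chromosome 2, 163820861 to 163833146, plus strand) was the other fibroblast member. Fibroblasts had 589 and 507 CPM and SMCs 52.3 and 46.0 CPM, with a log2 difference, SMC minus fibroblast, of -3.38 ± 0.13 (edgeR adjusted p = 1.27e-19). The fibroblast level was 11.3-fold and 11.0-fold that of SMCs. Lymphocytes had 5.63 and 9.63 CPM, below SMCs by a log2 difference of 2.76 ± 0.25 (edgeR adjusted p = 5.55e-11). This was 0.95 with doublets kept, 2.16 without UMI limits and 2.15 within aorta 2 alone, and passed in both tests. The ratio of the SMC to the fibroblast level, 0.0888 and 0.0906, was above the highest ratio of the 7 fibroblast markers.

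Myeloid cells had 6.40 and 5.90 CPM of Ccn5, endothelial cells 2.98 and 2.20 CPM and mesothelial cells 1.65 and 1.98 CPM. None of these 3 types lay above lymphocytes in both aortas. Lymphatic endothelial cells held 2 and 0 UMIs, erythroid cells 1 and 0, and neutrophils 0 and 1. The family's remaining gene, Ccn6, which is no member here, had 4 and 1 UMIs in all analysed cells and 0 in SMCs and fibroblasts.

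Between SMCs and endothelial cells 4 of the 5 members passed the test, all higher in SMCs (28.7% of genes tested were higher in SMCs and 52.7% differed in either direction). The log2 difference was 5.90 ± 0.26 for Ccn3 (edgeR adjusted p = 5.13e-18). It was 4.45 ± 0.28 for Ccn5 (edgeR adjusted p = 2.53e-14) and 2.60 ± 0.55 for Ccn4 (edgeR adjusted p = 0.000220). All 3 still passed with doublets kept, where Ccn3 was 4.83 and Ccn5 3.42, and with cells of 5000 to 25000 UMIs, where Ccn5 was 3.70. Within aorta 2 alone the Ccn4 difference was 1.63. Between fibroblasts and endothelial cells all 5 passed, against 43.7% of genes tested. Ccn1 was the only member higher in endothelial cells, by 2.05 ± 0.23 on the log2 scale (edgeR adjusted p = 1.32e-08).

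The share of cells with at least 1 UMI was compared after each cell had been thinned to 1000 UMIs, with no cell left out. Before thinning, the median UMIs per cell were 7728 and 7453 for SMCs, 5879 and 5747 for fibroblasts, and 4557.5 and 4302.5 for lymphocytes. Ccn2 was found in 61.4% and 57.7% of SMCs and in 44.7% and 37.5% of fibroblasts, against 3.00% and 3.10% of lymphocytes. Without thinning the Ccn2 shares were 83.6% in SMCs of both aortas and 70.1% and 62.5% in fibroblasts.

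Ccn3 was found in 43.2% and 42.0% of SMCs, 6.67% and 9.96% of fibroblasts, 30.4% and 23.7% of lymphatic endothelial cells, and 0.800% and 2.07% of lymphocytes. Ccn1 was found in 21.4% and 12.9% of SMCs, 19.5% and 17.9% of endothelial cells, 7.30% and 2.81% of fibroblasts, and 0.800% and 0% of lymphocytes (0 of 290 cells). In aorta 2 Ccn1 was found in a smaller share of SMCs and fibroblasts than in aorta 1. Without thinning, Ccn1 was in 57.0% and 45.1% of SMCs and 37.7% and 32.8% of endothelial cells.

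Ccn5 was found in 25.3% and 23.7% of fibroblasts, 4.65% and 4.72% of SMCs and 0.600% and 0.690% of lymphocytes. Ccn4 was found in 2.31% and 2.63% of fibroblasts, 0.531% and 0.242% of SMCs and 0 lymphocytes. Without thinning, Ccn5 was in 43.0% and 39.4% of fibroblasts and Ccn4 in 14.6% and 12.0%. In fibroblasts the variance of Ccn5 UMIs at 1000 UMIs per cell was 3.18 and 3.01 times their mean, and that of Ccn2 was 3.82 and 4.46 times. A ratio of 1 would stand for counting error alone, so these members were spread unevenly among fibroblasts. Within single subsets, described below, the Ccn2 ratio was 3.87 and 4.44 in F0 and 2.13 and 1.89 in F2. For Ccn5 it was 2.74 and 2.68 in F0 and 1.56 and 1.15 in F2.

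Counted over whole aortas, SMCs held 70.3% ± 3.60 of the Ccn1 UMIs, 73.2% ± 0.668 of the Ccn2 UMIs and 89.0% ± 4.14 of the Ccn3 UMIs (mean ± SD, n = 2). Fibroblasts held 74.3% ± 2.45 of the Ccn4 UMIs and 85.6% ± 0.501 of the Ccn5 UMIs. Endothelial cells held 16.4% ± 4.37 of the Ccn1 UMIs. These shares depend on how many cells of each type were recovered, and in such sums fewer cells of a type and less RNA per cell cannot be told apart.

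**Figure D2:**
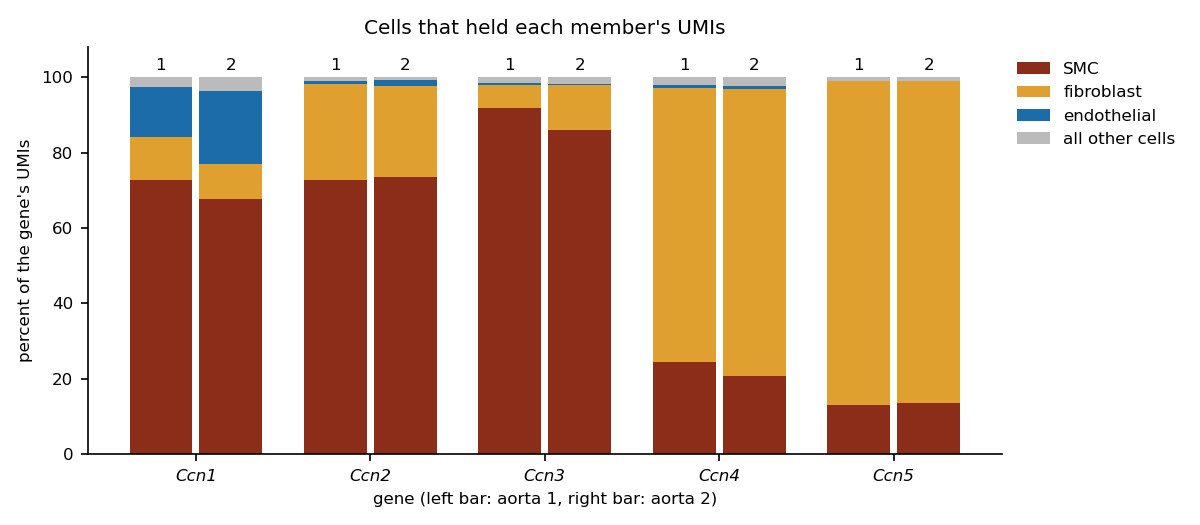
Percent of each member's UMIs held by SMCs, fibroblasts, endothelial cells and all other cells, in aorta 1 (left bar) and aorta 2 (right bar). SMCs hold most UMIs of Ccn1, Ccn2 and Ccn3, and fibroblasts most of Ccn4 and Ccn5, in both aortas.

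SMCs were clustered further into subsets, with the 5 members, the gene lists below and the mitochondrial genes left out, so that no member helped to define a subset. Subsets S0 to S6 had at least 10 cells in each aorta and were compared. S0 (1071 cells) was led by the heart-and-outflow transcription factor gene Hand2, by Tnnt2 and by the stress genes Hspa1a, Hspa1b and Atf3, although these 3 had been left out of the clustering, S1 (904 cells) by Dlx6 and Msx2, and S2 (831 cells) by Hoxa7 and Tnc. S5 (120 cells) was led by Pln, Gja4 and Notch3. S3 (750 cells) and S4 (145 cells) were shallow, with medians of 1766 and 1858 UMIs per cell, and nuclear Malat1 and Neat1 were among the leading genes of S4. S6 (49 cells) held fibroblast genes such as Lum and Dcn. Because subsets were drawn from other genes of the same cells, the p-values among them cover only the spread between the 2 aortas.

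All 5 members differed among SMC subsets, with edgeR adjusted p-values from 1.01e-11 for Ccn3 to 1.05e-05 for Ccn1, as did 50.9% of the 9651 genes tested. Ccn1 was 539 and 219 CPM in S0, 338 and 254 CPM in S5, 351 and 204 CPM in S2, and 177 and 173 CPM in S1, so that of these 4 subsets S0 was highest in aorta 1 and S5 in aorta 2. Among S0, S1, S2 and S5, the gap between the aortas was widest in S0, and S1 was nearly equal in both. The summed level of 21 immediate early genes, described further below, was 3598 and 2409 CPM in S0, 4401 and 2040.3 CPM in S5, 2058 and 1873 CPM in S2 and 1665 and 1505 CPM in S1. S0 and S5 thus stood in the opposite order to Ccn1 in each aorta, and the part of these genes in the Ccn1 and Ccn2 levels of the subsets was not tested. S2 exceeded S1 by a log2 difference of 0.83 (edgeR adjusted p = 0.0381), a difference that did not pass with library totals in place of TMM (0.67, edgeR adjusted p = 0.0746) or with DESeq2 (0.82, adjusted p = 0.534).

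Ccn2 was lower in S1 than in S0 and S2 too, with 2621 and 1879 CPM in S0, 2092 and 1904 CPM in S2 and 1200 and 1594 CPM in S1. S2 against S1 was 0.67 on the log2 scale (edgeR adjusted p = 0.0308), and did not pass with library totals (0.51, edgeR adjusted p = 0.0724) or DESeq2 (0.67, adjusted p = 0.437). The shallow S4 had the highest Ccn1 (560 and 1099 CPM) and Ccn2 (3725 and 3466 CPM), without differing from S0 by the test (edgeR adjusted p = 0.0521 and 0.108). The equally shallow S3 had low levels of both, 147 and 71.6 CPM of Ccn1 and 824 and 731 CPM of Ccn2.

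Ccn3 had another order. It was highest in S5, at 1375 and 1506 CPM, then in S0, at 1081 and 961 CPM, and these neighbours did not differ by the test (edgeR adjusted p = 0.0633). S1 had 548 and 568 CPM and S2 482 and 520 CPM, without a difference between them (edgeR adjusted p = 0.999274). S0 exceeded S1 by a log2 difference of 1.06 ± 0.15 (edgeR adjusted p = 2.57e-06). The fibroblast-like S6 had 197 and 50.4 CPM, below every other subset in both aortas.

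Among S0, S1, S2 and S5, Ccn5 was lowest in S1, at 16.2 and 17.2 CPM, against 82.9 and 75.6 CPM in S2, 50.1 and 32.8 CPM in S0 and 33.3 and 54.2 CPM in S5. S2 exceeded S1 by a log2 difference of 2.41 ± 0.18 (edgeR adjusted p = 8.03e-11) and S0 exceeded S1 by 1.56 ± 0.19 (edgeR adjusted p = 4.42e-07). In S6, which held fibroblast genes, 0 Ccn5 UMIs were found in 18 and 31 cells, which allows up to 19.7 and 15.1 CPM. Ccn4 reached 56.7 and 30.6 CPM in S5, from 29 UMIs in aorta 1, and at most 7.87 CPM in S0, S1 and S2.

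**Figure D3:**
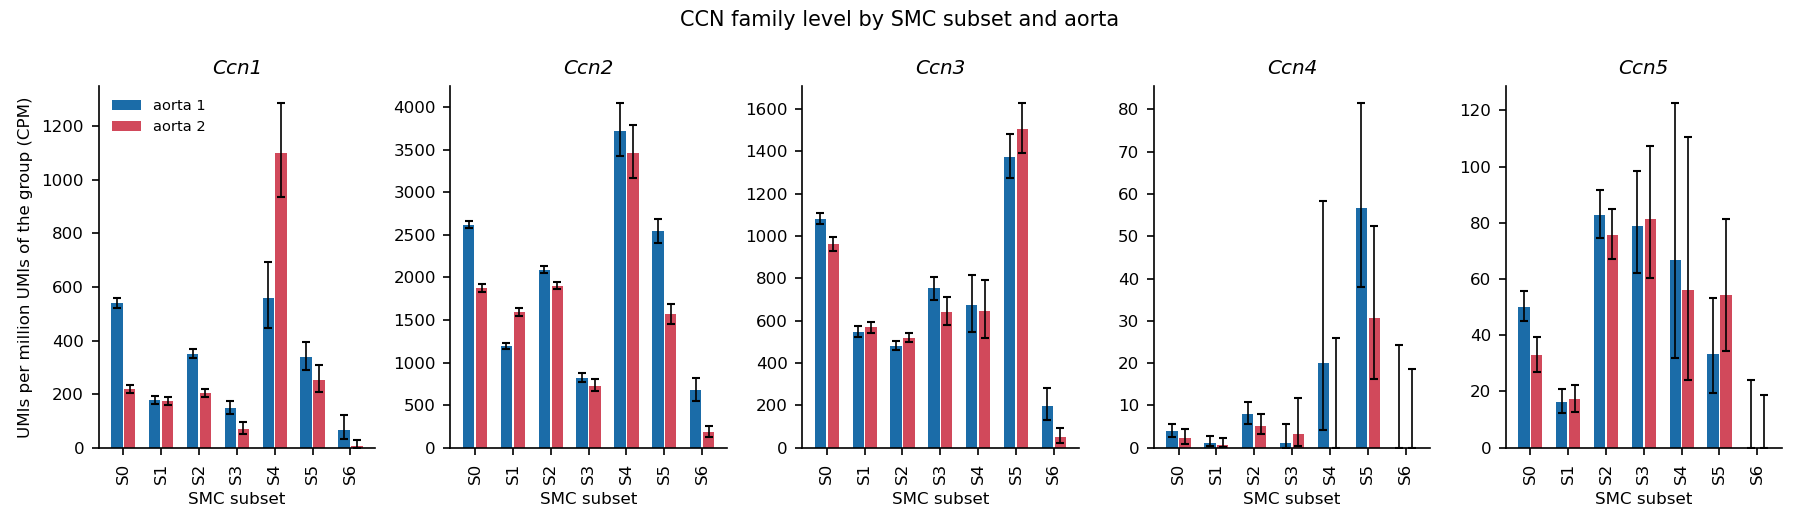
Level of each member in CPM in 7 SMC subsets, with 1 bar per aorta and exact 95% Poisson intervals for counting error. Ccn1, Ccn2 and Ccn5 are lower in S1 than in S2 in both aortas, while Ccn3 and Ccn4 are highest in S5.

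Fibroblasts fell into 9 subsets, all compared. F0 (602 cells) was led by Pax1, Fmod and Vegfd, F1 (547 cells) by Hhip and C1qtnf3, F2 (464 cells) by Sfrp4 and Penk, and F3 (358 cells) by Pla1a, Dact2 and Dpp4. F4 (273 cells) was led by Lamc3, Dio2 and Adamtsl2, F5 (174 cells) by Igfbp3 and Tcf21, and F7 (99 cells) by Chrm2 and Mab21l2. F6 (157 cells) held SMC genes such as Myh11 and Acta2, and F8 (33 cells) T cell and macrophage genes. Ccn5 was itself among the leading genes of F0, although it had been left out of the clustering.

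All 5 members differed among fibroblast subsets, with edgeR adjusted p-values from 1.80e-15 for Ccn2 to 1.40e-05 for Ccn1, against 43.8% of the 10559 genes tested. Ccn2 was highest in F4, at 2566 and 2688 CPM, and in F0, at 1902 and 2107 CPM, which did not differ by the test (edgeR adjusted p = 0.588). F4 lay above the Ccn2 level of SMCs as a whole in both aortas, a difference that was not tested. F1 had 1022 and 849 CPM, F2 504 and 420 CPM, F3 296 and 177 CPM, F5 251 and 215 CPM, and F7 90.3 and 110 CPM. F4 exceeded F3 by a log2 difference of 3.44 ± 0.26 (edgeR adjusted p = 1.61e-12).

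Ccn5 was highest in F0, at 1310 and 1500 CPM, followed by the mixed F8 with 1146 and 632 CPM, F1 with 868 and 688 CPM and F4 with 490 and 421 CPM. F0 and F8 did not differ by the test (edgeR adjusted p = 0.143). The Dpp4 subset F3 had 46.9 and 4.89 CPM and F7 had 10 UMIs in aorta 1 and 0 in aorta 2. F0 exceeded F3 by a log2 difference of 5.87 ± 0.37 (edgeR adjusted p = 3.34e-14). F0 also exceeded F4 by 1.69 ± 0.28 (edgeR adjusted p = 9.63e-05), which did not pass with DESeq2 (1.69, adjusted p = 0.347). Both Ccn2 and Ccn5 were low in F3 and F7, and for Ccn5 these subsets did not differ by the test (edgeR adjusted p = 0.595), the 0 UMIs of F7 in aorta 2 allowing up to 20.7 CPM.

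Ccn4 was also high in F4, F6 and F0, with 73.1 and 48.5 CPM in F4, 47.9 and 62.1 CPM in F6, 44.4 and 53.2 CPM in F0, 27.1 and 29.5 CPM in F1, 4.08 and 2.30 CPM in F2 and 1.68 and 0 CPM in F3. F0 exceeded F1 by a log2 difference of 0.80 ± 0.24 (edgeR adjusted p = 0.0353), which did not pass with DESeq2 (0.82, adjusted p = 0.252). F2 and F3 held 9 Ccn4 UMIs or fewer over both aortas each.

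Ccn1 and Ccn3 were highest in F6, the subset that held SMC genes. There Ccn1 was 270 and 120 CPM and Ccn3 340 and 492 CPM. Outside F6, Ccn3 was highest in F0, at 119 and 315 CPM, and F6 exceeded F0 by the test (edgeR adjusted p = 0.0403). Without the mixed subsets S6, S7, S8, F6 and F8, the log2 difference of Ccn3 between SMCs and fibroblasts was 2.89 in place of 2.64 and that of Ccn1 2.22 in place of 2.04. Neighbouring subsets did not differ in Ccn1 by the test, from 155 and 97.0 CPM in F4 to 7.85 and 0 CPM in F7.

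**Figure D4:**
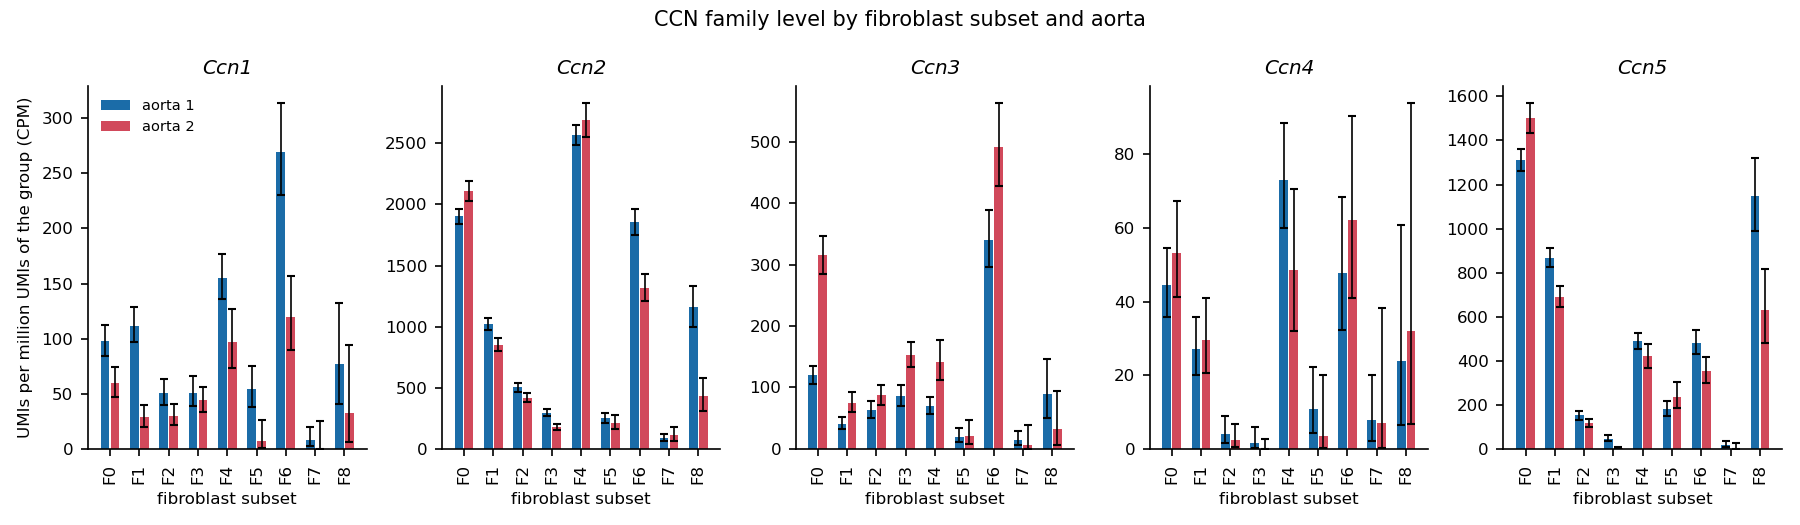
Level of each member in CPM in 9 fibroblast subsets, with 1 bar per aorta and exact 95% Poisson intervals for counting error. Ccn2 and Ccn4 are high in F0 and F4, Ccn5 is highest in F0, and all 3 are low in F3 and F7 in both aortas.

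Within single cells thinned to 1000 UMIs, SMCs with a Ccn1 UMI had a Ccn2 UMI more often than SMCs without one, in 77.8% against 56.9% of cells in aorta 1 and 79.0% against 54.5% in aorta 2. With a Ccn1 UMI, Ccn3 was found in 48.2% against 41.8% and 46.7% against 41.3%, a smaller step. In fibroblasts, cells with a Ccn5 UMI had a Ccn2 UMI in 66.7% against 37.2% of cells and 56.5% against 31.6%. The cells of an aorta share 1 library, so these shares are descriptions without a test. In endothelial cells, those with a Ccn1 UMI had a Ccn2 UMI in 18.1% against 6.57% and 18.8% against 3.92%.

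Digestion of tissue can raise immediate early genes, the quick transcriptional response to growth factors and stress, so Ccn1 and Ccn2 were set beside 21 such genes (among them Fos, Jun, Egr1, Atf3 and Hspa1a, without Ccn1). The summed level of the 21 genes was 2580 and 1878 CPM in SMCs, 1698 and 1619 CPM in fibroblasts and 3287 and 3606 CPM in endothelial cells. Ccn1 was higher in aorta 1 in all 3 types, whereas the sum was higher there in SMCs, nearly equal in fibroblasts and lower there in endothelial cells. Cells of each type and aorta were then placed in 3 bins of equal size by the UMIs of these genes at 1000 UMIs per cell. Cells with equal UMI numbers can fall on both sides of a bin limit.

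From the low through the middle to the high bin, Ccn1 in SMCs was 142, 262 and 660 CPM in aorta 1 and 96.2, 114 and 381 CPM in aorta 2. Ccn2 was 1230, 1823 and 2603 CPM in aorta 1 and 1156, 1646 and 2051 CPM in aorta 2. Over all SMCs, both were higher in each higher bin in both aortas. Ccn3 was 648, 695 and 811 CPM in aorta 1 and 681, 726 and 679 CPM in aorta 2, and Ccn5 was between 41.7 and 57.1 CPM in all 6 bins.

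The step was not the same in every SMC subset. In S0, Ccn1 went from 298 CPM in the low bin to 1075 CPM in the high bin of aorta 1, and from 46.2 to 248 CPM in aorta 2. In S2 it went from 218 to 664 CPM and from 122 to 423 CPM. In S1 it went from 160 to 123 CPM in aorta 1 and from 129 to 187 CPM in aorta 2, so no common direction was seen there. The Ccn2 rise of aorta 2 was small or uneven within subsets, with 1854, 1853 and 2023 CPM from the low to the high bin of S0, 1359.7, 1691 and 1683 CPM in S1, and 1802, 1954 and 2008 CPM in S2. In aorta 1 Ccn2 went from 2171 to 3709 CPM in S0, from 1117 to 1302 CPM in S1 and from 1803 to 2411 CPM in S2.

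Fibroblasts and endothelial cells did not show the rise. Ccn1 in fibroblasts was 93.5 CPM in the low bin and 88.0 CPM in the high bin of aorta 1, and 48.9 and 46.2 CPM in aorta 2. In endothelial cells it was 447 and 272 CPM in aorta 1 and 321 and 290 CPM in aorta 2. Ccn2 in fibroblasts was 1342 and 1223 CPM in aorta 1 and 1217 and 685 CPM in aorta 2, and in endothelial cells 187 and 77.2 CPM in aorta 1 and 275 and 46.1 CPM in aorta 2. The endothelial values rest on 46 and 19 UMIs in aorta 1 and 60 and 10 UMIs in aorta 2. In aorta 2 the variance of the endothelial Ccn2 UMIs was 8.01 times their mean, so a few cells weigh heavily. With that limit, Ccn2 in both types was lower in the high bin, where it was higher in SMCs. Ccn5 in fibroblasts was 701 and 410 CPM in aorta 1 and 698 and 228 CPM in aorta 2, lower in the high bin. Fibroblast subset F3, which had little Ccn5, had the highest summed level of the 21 genes among fibroblast subsets (3172 and 3161 CPM), and F0, which had most, had the lowest (1052 and 727 CPM). F7, which also had little Ccn5, went against this with a low sum (1134 and 916 CPM). The part of digestion in these levels was not tested.

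**Figure D5:**
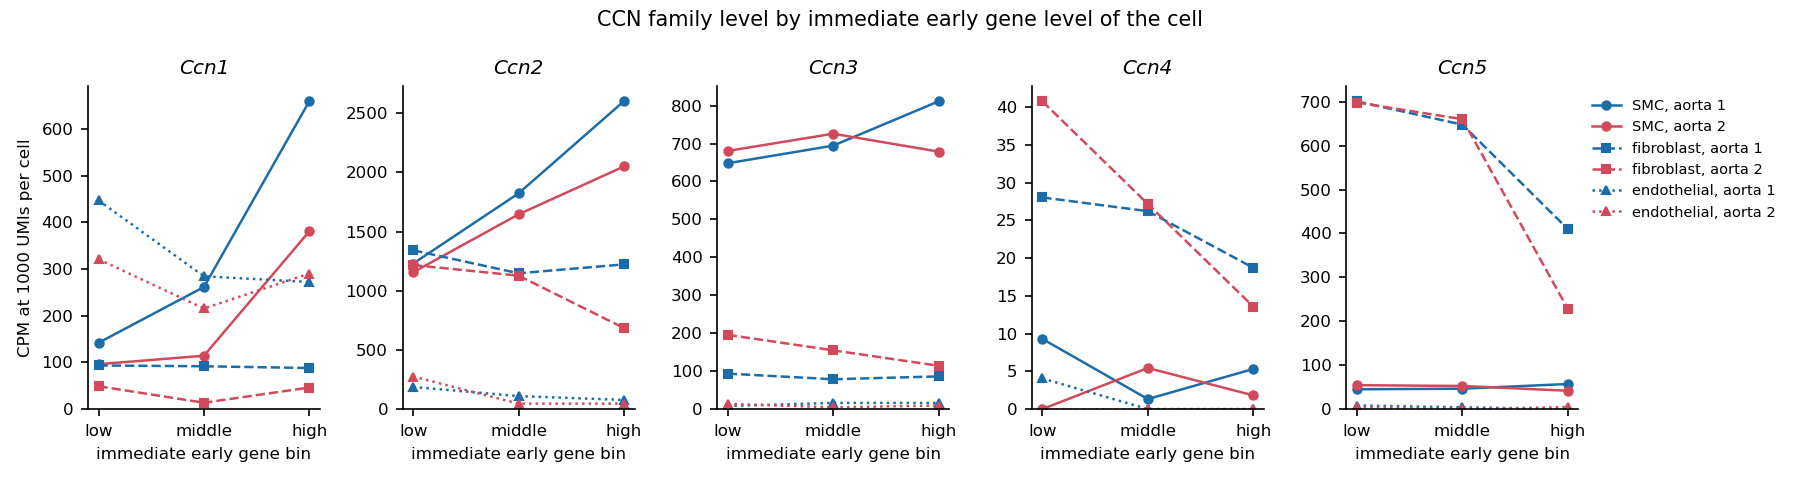
Level of each member in CPM, at 1000 UMIs per cell, in cells with a low, middle or high number of immediate early gene UMIs, in SMCs, fibroblasts and endothelial cells of each aorta. Ccn1 and Ccn2 are higher in each higher bin of SMCs in both aortas, while Ccn5 in fibroblasts is lower in the high bin.

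Genes of the pathways around the family were counted between SMCs and fibroblasts, where 24.9% of genes tested were higher in SMCs and 28.6% higher in fibroblasts. Of 21 immediate early genes tested, 10 were higher in SMCs, 7 higher in fibroblasts and 4 did not pass. The median log2 difference, SMC minus fibroblast, was 0.25 for this list against -0.06 for all genes. The stress-induced transcription factor gene Atf3 was 260 and 115 CPM in SMCs and 11.7 and 5.21 CPM in fibroblasts (log2 difference 4.50 ± 0.29, edgeR adjusted p = 2.97e-14). The heat shock genes Hspa1a (3.88) and Hspa1b (3.00) were higher in SMCs too, whereas the transcription factor gene Klf4 was higher in fibroblasts (-2.77).

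Of 10 TGF-β responsive genes, 5 were higher in SMCs, 3 higher in fibroblasts and 2 did not pass, with a median log2 difference of 0.38. Postn, a matricellular protein gene, was 888 and 767 CPM in SMCs and 82.0 and 111 CPM in fibroblasts (3.21 ± 0.18, edgeR adjusted p = 5.82e-15). Tgfbi, which encodes a secreted adhesion protein, went the other way, with 5.84 and 3.37 CPM in SMCs and 1098 and 1015 CPM in fibroblasts (-7.69 ± 0.23, edgeR adjusted p = 8.29e-22). Bhlhe40, a transcriptional repressor gene, was also higher in fibroblasts (-2.92).

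Of the 19 YAP and TAZ responsive genes tested (of 20 in the list), 6 were higher in SMCs, 8 higher in fibroblasts and 5 did not pass, with a median of -0.25. Fjx1 was 41.0 and 45.1 CPM in SMCs and 5.35 and 4.02 CPM in fibroblasts (3.25 ± 0.20, edgeR adjusted p = 1.85e-14). The tissue factor gene, whose symbol F3 is also the name of a subset above, was 59.4 CPM in SMCs of both aortas and 768 and 870 CPM in fibroblasts (-3.69 ± 0.17, edgeR adjusted p = 2.79e-17). The receptor tyrosine kinase gene Axl (-1.80) and Igfbp3 (-5.88), which encodes a binding protein of insulin-like growth factors, were higher in fibroblasts.

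Of 18 genes of the Hippo pathway, TEAD factors and SRF cofactors, 4 were higher in SMCs, 5 higher in fibroblasts and 9 did not pass, with a median of 0.06. Myocd, the smooth muscle coactivator of SRF, differed most (68.2 and 74.1 CPM in SMCs, 3.63 and 3.58 CPM in fibroblasts, 4.38 ± 0.17, edgeR adjusted p = 3.49e-18). Tead3 (1.53) and Srf (0.98) were higher in SMCs, and the TEAD cofactor gene Vgll3 was higher in fibroblasts (-2.01). Yap1, with 30.5 and 31.5 CPM in SMCs and 31.8 and 28.5 CPM in fibroblasts, did not pass (0.13, edgeR adjusted p = 0.388), and Wwtr1, the TAZ gene, did not either (0.12, edgeR adjusted p = 0.473).

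Of the 16 CCN receptors and binding partners tested (of 17), 6 were higher in SMCs, 6 higher in fibroblasts and 4 did not pass, with a median of -0.19. The integrin subunit genes Itgb3 (2.27) and Itga5 (1.86) were higher in SMCs. Lrp1, which encodes an endocytic receptor, was 258 and 267 CPM in SMCs and 1330 and 1292 CPM in fibroblasts (-2.23 ± 0.17, edgeR adjusted p = 2.43e-12). Bmp4, a growth factor gene, was higher in fibroblasts too (-4.31) and was 1074 and 1232 CPM in endothelial cells.

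The genes whose pattern over the 18 sums of 9 types and 2 aortas was most like that of each member were found by Pearson's r of log2(CPM + 1), a description over sums that share libraries. They were Itga5 (0.94), Lmcd1 (0.94) and Nrep (0.93) for Ccn1, and Nox4 (0.94), Calhm5 (0.92) and Pi15 (0.92) for Ccn2. For Ccn3 they were Serpine2 (0.94), Gucy1b1 (0.89) and Dpysl3 (0.89). For Ccn4 they were Apcdd1 (0.96), Hoxc6 (0.96) and Epha3 (0.95), and for Ccn5 Ano2 (0.90), Ece2 (0.89) and Gsc (0.88).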

How the data were processed

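The authors deposited raw UMI counts, from Cell Ranger 4.0.0 per the submitters' processing notes and the labels (mouse genome with reporter sequences added). Cells were kept at 1000 to 25000 UMIs, over 200 genes and under 10% mitochondrial UMIs. Scrublet doublets (205 and 84 cells) were removed. Clustering used scanpy 1.11.5 (2000 variable genes, 30 components, 15 neighbours, Leiden resolution 1, and 0.5 for subsets), leaving out 106 genes. Clusters were named from markers, with at least 3 detected. A cluster that scored best as pericyte was named SMC where it detected at least as large a share of SMC markers; this was set after cluster tables had been seen. UMIs were summed per aorta and type or subset and tested with edgeR 4.0.16 (R 4.3.3; TMM, filterByExpr, quasi-likelihood, Benjamini-Hochberg, adjusted p under 0.05). Errors of log2 differences are SE. Intervals cover counting error only. The aorta number pairs sums of 1 animal; deviations of its sums correlated weakly (median r 0.01 over 36 pairs of types). Named list genes are the 4 with the largest difference among those that passed, with at least 50 UMIs in each aorta. A gene that this rule names is not reported here. Members and lists were chosen with earlier results of these data known. Coordinates are from GENCODE on GRCm38.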

Additional observations from a re-analysis of the deposited data

How the results depend on the processing

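The 5 differences between SMCs and fibroblasts kept their direction under all 16 alternatives, and Ccn1, Ccn3, Ccn4 and Ccn5 kept their call in each that gave a test. Ccn2 did not pass with RLE (0.55) or DESeq2 (0.55). The median of all genes moved from -0.06 to -0.36 with RLE, -0.25 with DESeq2 and -0.15 with library totals, and genes higher in SMCs made up 46.5%, 26.2%, 26.5% and 39.4% of calls. Relative to that median, the Ccn2 difference was 0.92 in the reported fit, 0.91 with RLE and 0.80 with DESeq2. With the aorta as a replicate block, the Ccn2 difference was 0.86 (edgeR adjusted p = 0.000151). The block changed no call, though the uncalled Ccn1 difference between fibroblasts and lymphatic endothelial cells changed sign (-0.0440). That difference, 0.06 in the reported fit, was also -0.47 with library totals, -0.22 with RLE, -0.14 without a gene filter, -0.25 with DESeq2, -0.27 with doublets kept, -1.50 with 5000 to 25000 UMIs per cell (where it passed), -0.12 without UMI limits, -0.16 with pericytes named by score and -0.17 without mixed subsets. The Ccn1 difference between SMCs and endothelial cells was 0.0204 with all genes allowed in the clustering and 0.20 with pericytes named by score. With 5000 to 25000 UMIs, lymphatic endothelial cells did not differ in Ccn1 from SMCs (0.57) or endothelial cells (1.12), nor in Ccn3 from SMCs (0.42). Fibroblasts did not differ from mesothelial cells in Ccn1 with doublets kept (0.90), nor SMCs from mesothelial cells in Ccn4 with doublets kept (0.80) or DESeq2 (1.75). Fibroblast-high Hippo genes numbered 8 with RLE or DESeq2 and 3 without a gene filter. The cause was not tested.

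With 1 aorta left out no test was possible, since no residual degrees of freedom remained. The log2 differences then ran from 2.11 to 3.27 for Ccn3 between SMCs and fibroblasts. Between SMCs and endothelial cells they ran from -0.43 to 0.24 (Ccn1), 3.38 to 4.26 (Ccn2), 5.66 to 6.16 (Ccn3), 1.63 to 2.37 (Ccn4) and 4.15 to 4.20 (Ccn5). Between fibroblasts and endothelial cells they ran from -2.54 to -1.78 (Ccn1), 2.52 to 3.41 (Ccn2), 2.39 to 4.06 (Ccn3), 4.08 to 4.52 (Ccn4) and 7.54 to 7.57 (Ccn5). For Ccn1 they ran from 1.50 to 2.44 (SMC against lymphatic endothelial), 1.00 to 1.69 (fibroblast against mesothelial), -0.61 to 0.41 (fibroblast against lymphatic endothelial) and 2.98 to 3.59 (fibroblast against lymphocyte). For Ccn3 they ran from 0.57 to 1.64 (lymphatic endothelial against fibroblast), 4.04 to 4.63 (lymphatic against blood endothelial) and 1.95 to 2.39 (fibroblast against lymphocyte). SMCs against mesothelial cells gave 0.93 to 2.26 and against lymphocytes 1.77 to 3.94 for Ccn4, and against lymphocytes 2.15 to 3.11 for Ccn5.

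Requiring at least 2 UMIs at 1000 UMIs per cell gave mean shares of SMCs of 5.78% (Ccn1), 38.6% (Ccn2), 16.8% (Ccn3), 0% (Ccn4) and 0.254% (Ccn5), and of fibroblasts of 0.833%, 23.7%, 2.42%, 0.108% and 13.0%. With 5000 to 25000 UMIs the shares were 65.8% of SMCs for Ccn2, 0.776% for Ccn4 and 5.30% for Ccn5, and 2.24% and 25.9% of fibroblasts for Ccn4 and Ccn5. Without UMI limits they were 65.7% (Ccn2), 44.3% (Ccn3) and 3.92% (Ccn5) of SMCs. With doublets kept they were 41.5% (Ccn3), 0.617% (Ccn4) and 5.83% (Ccn5) of SMCs and 1.88% of fibroblasts for Ccn4. SMCs held 77.3%, 78.2%, 37.4% and 18.0% of the UMIs of Ccn1, Ccn2, Ccn4 and Ccn5 with 5000 to 25000 UMIs. Without UMI limits they held 64.9%, 68.6%, 82.9% and 12.1% of those of Ccn1, Ccn2, Ccn3 and Ccn5, and with doublets kept 33.1% and 18.8% of those of Ccn4 and Ccn5. Alternatives in naming and in subsets left out were chosen after seeing the data. With 2 aortas and 46 and 76 lymphatic endothelial cells, values of that type rest on few UMIs.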
